A study of Mus musculus with 5 samples.

Results

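The comparison described here is that of livers from mice given all-trans retinoic acid in a normal diet after a high-fat, high-fructose diet (HFHFr-NA) with livers from mice given the normal diet alone after the same feeding (HFHFr-N). It takes in 2 of the 5 arrays of the study, chosen by their labels, and 14875 genes that were well above background on at least 1 of them, of 28631 gene names on the array. All mice were male C57BL/6J, a common inbred strain, and 25 weeks of age. Both groups had spent 16 weeks on the fat- and fructose-rich diet (HFHFr) and then 4 weeks on the normal one, and they differed in the all-trans retinoic acid of HFHFr-NA over those 4 weeks. Per the labels, HFHFr-N mice were insulin resistant and HFHFr-NA mice had recovered. The other arrays were an untreated Control, HFHFr-F with 20 weeks of the HFHFr diet, and HFHFr-FA, in which 16 weeks of it were followed by 4 weeks of it with all-trans retinoic acid added. Each array held RNA pooled from the livers of 5 mice, so a group was 1 sample, the spread between mice is unknown, no test between groups was possible, and "higher" and "lower" describe these pools.

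Retinoic acid is the form of vitamin A that acts on genes. It binds the nuclear retinoic acid receptors, which pair with retinoid X receptors on direct repeats of a short sequence in DNA and raise the transcription of nearby genes. Among the best known targets are the receptor Rarb itself and the Cyp26 enzymes, which oxidise retinoic acid and so limit its own level. The liver stores most of the body's vitamin A, as retinyl esters in stellate cells, and retinoids are known there for effects on lipid and glucose metabolism.

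Promoters of 8 genes described below (Cyp26a1, Cyp26b1, Rarb, Asns, Igfbp1, Got1, Lepr and Gadd45g), chosen with their array values known, were searched for such repeats. The stretches shown come from RefSeq (GRCm38.p6), are written 5′ to 3′ on the gene's strand and end at or before the annotated start. Capitals mark the match. Cyp26a1 (chr19:37697746-37697807, + strand) and Rarb (chr14:16575483-16575559, - strand) held a direct repeat with a spacer of 5 bases, each half-site being NGGTCA or NGTTCA on either strand. Asns (chr6:7693210-7693262, - strand), Got1 (chr19:43524670-43524737, - strand) and Gadd45g (chr13:51846544-51846611, + strand) held TGATGNAA on either strand, the core of the element bound by ATF4 and C/EBP proteins.
Cyp26a1: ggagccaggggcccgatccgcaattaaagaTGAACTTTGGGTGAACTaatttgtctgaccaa
Rarb: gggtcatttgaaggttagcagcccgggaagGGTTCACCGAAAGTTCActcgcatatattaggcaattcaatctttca
Asns: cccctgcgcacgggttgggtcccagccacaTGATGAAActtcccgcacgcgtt
Got1: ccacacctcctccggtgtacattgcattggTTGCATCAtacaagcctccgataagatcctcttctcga
Gadd45g: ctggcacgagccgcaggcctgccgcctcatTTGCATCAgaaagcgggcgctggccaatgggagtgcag
The Cyp26a1 repeat lay from -32 to -16 and the Rarb repeat from -53 to -37, counted from the start. The Cyp26a1, Got1 and Gadd45g matches read on the opposite strand.

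The repeat with a spacer of 5 was found in 81 of 32851 promoters of 300 bases (0.247%), and TGATGNAA in 1304 (3.97%). Of the 9683 measured genes with a promoter in the table, 21 held the repeat. Rarb and Cyp26a1 were the only ones of these 21 at least 2-fold higher in HFHFr-NA, 0 were 2-fold lower, the next highest was Serpinf2 at 0.51 and the median log2 ratio was -0.13. TGATGNAA was held by 283 measured genes. Of these, 6 were at least 2-fold higher (2.12%) and 4 lower (1.41%), beside 1.03% and 1.23% of all 9683. The 6 included Asns, Got1 and Gadd45g, which were among the genes chosen with their array values known, as were Rarb and Cyp26a1. Olfr1290, also among the 6, stood among other spots that were bright on the HFHFr-NA array alone. The shares are therefore no independent test of either motif. Repeats with a spacer of 2 or 1 were also searched and were not found in the promoters of Cyp26b1, Igfbp1 or Lepr. A match describes the letters in this window and is not a measured binding site.

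The level of a gene is given here as log2 of its processed signal relative to the 75th percentile of its array, so that 0 is that percentile and each unit is a doubling. Of the 14875 genes, 225 (1.51%) were at least 2-fold higher in HFHFr-NA and 198 (1.33%) at least 2-fold lower. The median log2 ratio of HFHFr-NA over HFHFr-N was 0.02, and the middle 50% of genes lay between -0.19 and 0.23. Both arrays were on the same slide, with 49.0% and 48.4% of spots well above background and no saturated spot. Across the 5 arrays the 75th percentile of signal ran from 172 to 223, and the HFHFr-FA array came from another slide. With normexp background correction and quantile normalization, whose added offset shrinks ratios of dim genes, 50 genes were higher and 43 lower.

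Dim genes made up most of these counts. Among the 6460 genes whose brighter array lay below the 75th percentile, 161 were higher and 137 lower, whereas among the 3261 genes over 8 times that percentile 32 were higher and 23 lower. For 170 of the 423 genes, 1 of the arrays was not well above background and the ratio is a lower bound. For 47 2-fold genes at least 1 further probe was measured on both arrays. The mean of a gene's further probes pointed the same way in 44 and was also 2-fold in 26. Probes spotted 10 times and well above background had a median standard deviation between spots of 0.0713 in HFHFr-N and 0.0740 in HFHFr-NA on the log2 scale, a spread that leaves out mice and extractions. In 48 of the 423 genes the bright spot stood among other spots bright on that array alone, meaning at least 2 others within 2 rows and columns that were 2-fold or more above each other array.

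**Figure D1:**
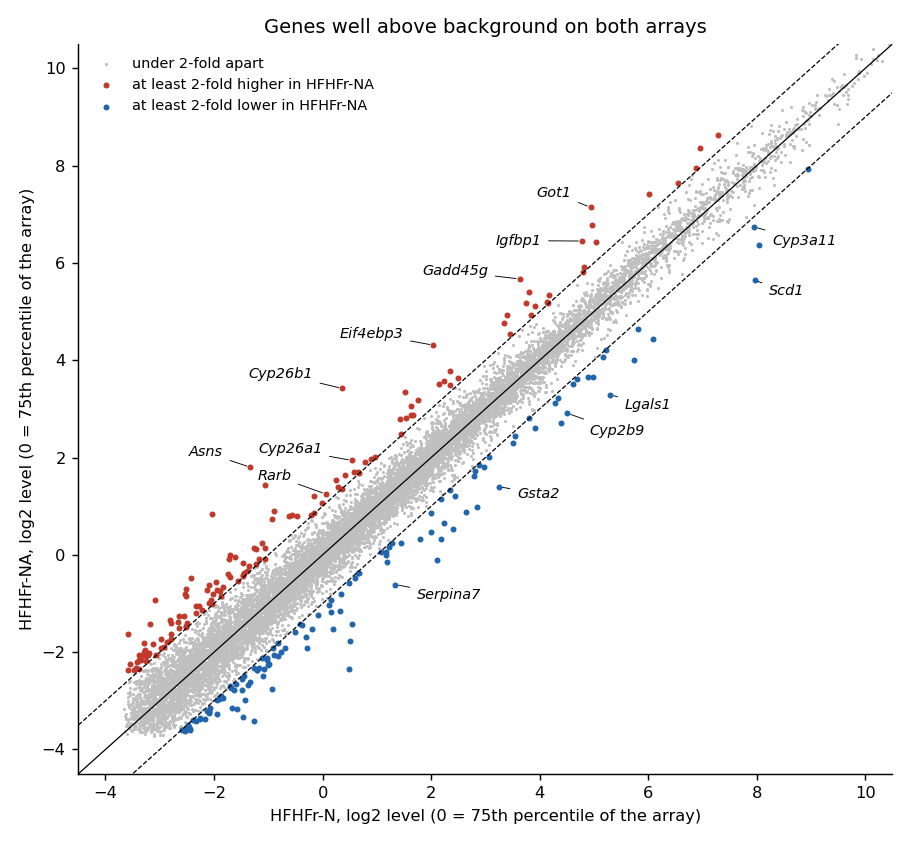
Log2 level of each gene well above background on both arrays, HFHFr-N on the x axis and HFHFr-NA on the y axis, with 0 at the array's 75th percentile. Dashed lines mark 2-fold, red points are at least 2-fold higher in HFHFr-NA and blue points at least 2-fold lower. Cyp26b1 and Asns lie far above the diagonal and Scd1 far below it.

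The receptor gene Rarb and both Cyp26 genes were higher in HFHFr-NA. In the list of receptors, binding proteins and clearing enzymes, 3 of the 15 measured were 2-fold higher or more and 0 lower. Among all measured genes the shares were 1.51% and 1.33%. The list's median was 0.08. Cyp26b1, which oxidises retinoic acid, had a level of 0.36 in HFHFr-N and 3.42 in HFHFr-NA, beside 0.93 in Control, 0.78 in HFHFr-F and 2.90 in HFHFr-FA. Both arrays with retinoic acid stood above the other 3, and the ratio of HFHFr-NA over HFHFr-N was 3.06, or 8.32-fold. Cyp26a1, the other main clearing enzyme of liver, had a level of 0.54 in HFHFr-N and 1.94 in HFHFr-NA, beside 0.62 in Control, -1.86 in HFHFr-F and -0.75 in HFHFr-FA. It was 2.64-fold higher in HFHFr-NA, and its ratio of HFHFr-FA over HFHFr-F was 1.11. Its level in HFHFr-FA was still below that of Control and HFHFr-N. Rarb, the receptor that is itself a target, had levels of 0.06 in HFHFr-N and 1.25 in HFHFr-NA, beside -0.32 in Control, 0.42 in HFHFr-F and 0.34 in HFHFr-FA. Its probe was spotted 10 times, and the spots had a standard deviation of 0.08 in HFHFr-NA and 0.09 in HFHFr-N, the highest spot in HFHFr-N being 0.19. Rarb was thus high on the HFHFr-NA array alone, at 2.28-fold, while its ratio of HFHFr-FA over HFHFr-F was -0.08.

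No other receptor or cofactor of this list was counted as 2-fold. Rxra, the main retinoid X receptor of hepatocytes, had a ratio of 0.36 and the cofactor Nrip1 had -0.19. Rarg was well above background on the HFHFr-N array alone, with a bound of -0.43 and, by another probe, -0.82, so its difference may be larger.

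The 28 measured genes for retinol storage, transport and oxidation had a median ratio of -0.06, and 0 were 2-fold lower. Lrat, which makes the retinyl esters, had a ratio of 0.47. Aldh1a1, which makes retinoic acid from retinal, had -0.54, the retinol dehydrogenase Adh4 had -0.70 and the carotenoid-cleaving Bco2 had -0.87.

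Few genes of the leptin and insulin pathways were counted as 2-fold apart, and the same held for all measured genes (1.51% higher, 1.33% lower). Of 18 genes of the leptin receptor and STAT3 list 0 were counted as higher and 0 as lower by 2-fold (median 0.02), with each gene read by its brightest probe. Lepr, the leptin receptor, was measured by 2 probes, at 101485484 to 101485543 and at 101461940 to 101463441 on chromosome 4 (mm9). Both probes were well above background in Control, HFHFr-NA and HFHFr-FA and on neither HFHFr-N nor HFHFr-F. The brighter probe had -2.80 in Control, -2.99 in HFHFr-NA and -2.14 in HFHFr-FA, which put HFHFr-NA at least 1.62-fold above HFHFr-N, and the other probe gave a bound of 1.61 on the log2 scale. These levels lie close to the lowest measurable ones, which were -3.69 in HFHFr-N and -3.75 in HFHFr-NA. Socs3, a feedback inhibitor of this pathway, had a ratio of 0.71, Stat3 had 0.37 and Socs2, an inhibitor of growth hormone signalling, had -0.97.

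None of the 33 genes of insulin signalling reached 2-fold in either direction, and their median was 0.04. The insulin receptor Insr had a ratio of -0.41, the kinase Pdpk1 0.73, the transcription factor Foxo1 0.50 and Akt2 0.41. Among 9 genes of insulin-like growth factors and their binding proteins 1 was higher and 1 lower, with a median of -0.07. Igfbp1, a liver-secreted binding protein that insulin represses, had levels of 4.78 in HFHFr-N and 6.45 in HFHFr-NA, beside 6.26 in Control, 6.61 in HFHFr-F and 8.90 in HFHFr-FA. HFHFr-N was thus the lowest of the 5 arrays, and HFHFr-NA was 3.20-fold above it and close to Control. Igfbp2 had levels of 6.70 in HFHFr-N and 7.45 in HFHFr-NA, beside 7.61 in Control, 4.77 in HFHFr-F and 7.23 in HFHFr-FA, a ratio of 0.75. Igfbp6 was dim and had a ratio of -1.10.

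Several enzymes that handle amino acids and ammonia were higher in HFHFr-NA. Of 13 measured genes of the urea cycle and ammonia list 3 were higher and none was lower, beside 1.51% and 1.33% of all measured genes. The list's median was 0.31. The 3 were Asl (2.63-fold), Ass1 (2.14-fold) and Cps1 (2.10-fold), enzymes of successive parts of urea synthesis, while Arg1 had 0.58 and Otc -0.42. Asl had levels of 6.02 in HFHFr-N and 7.41 in HFHFr-NA, beside 6.70 in Control, 5.24 in HFHFr-F and 6.53 in HFHFr-FA. Cps1, which fixes ammonia in mitochondria, had 6.88 in HFHFr-N and 7.95 in HFHFr-NA, beside 7.34 in Control, 5.97 in HFHFr-F and 6.86 in HFHFr-FA. For both genes HFHFr-NA was the highest array and HFHFr-F the lowest. Cyclic loess brought Cps1 to 0.98, just under 2-fold.

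Of 53 measured genes of amino acid catabolism 2 were higher, 1 was lower and 39 had a ratio above 0. The shares of all genes were 1.51%, 1.33% and 53.2%. The median was 0.30. Got1, the cytosolic aspartate aminotransferase, had levels of 4.94 in HFHFr-N and 7.14 in HFHFr-NA, beside 5.98 in Control, 4.24 in HFHFr-F and 5.52 in HFHFr-FA. It was the highest in HFHFr-NA, 4.59-fold above HFHFr-N. Sds, which breaks down serine, had a ratio of 1.11, and the aminotransferases Tat, Agxt and Gpt had 0.93, 0.93 and 0.87. Csad, an enzyme of taurine synthesis, was the lower one, just at 2-fold. Among 25 amino acid transporters 1 was higher and 0 were lower (median 0.16), namely Slc43a1, which carries large neutral amino acids, at 1.64.

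Asns, which makes asparagine and is a known target of the amino acid response, had the highest ratio of all genes measured on both arrays. Its level was -1.33 in HFHFr-N and 1.80 in HFHFr-NA, beside 1.27 in Control, 0.10 in HFHFr-F and -0.95 in HFHFr-FA. HFHFr-N was the lowest array, so that the ratio of 3.13 (8.77-fold) stood beside a ratio of -2.61 for HFHFr-N over Control, which shares the HFHFr-N array. The other 36 measured genes of the amino acid response list lay within 2-fold, and the list's median was 0.13. Atf4, the transcription factor of this response, had a ratio of 0.09, Ddit3 had 0.02, Trib3 -0.22, Cth 0.78 and Gpt2 0.81. Eif4ebp3, an inhibitor of translation initiation, was not in the list and had levels of 2.04 in HFHFr-N and 4.31 in HFHFr-NA, beside 3.79 in Control, 2.37 in HFHFr-F and 4.97 in HFHFr-FA. Its 2 probes both gave 2.26, and both arrays with retinoic acid were above the other 3.

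**Figure D2:**
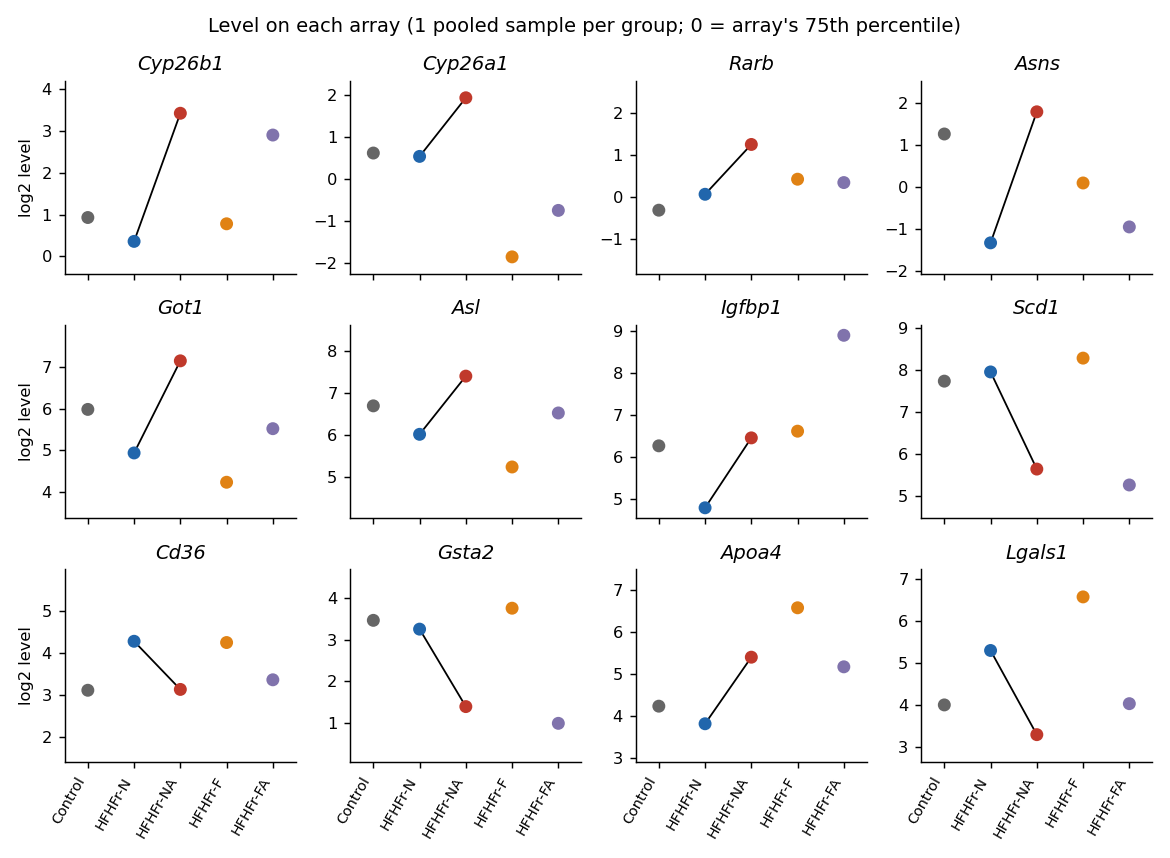
Log2 level on each of the 5 arrays for 12 genes, 1 point per pooled sample, with a line joining HFHFr-N and HFHFr-NA and every panel spanning the same number of log2 units. Cyp26b1 is high on both arrays with retinoic acid, Rarb on HFHFr-NA alone, and Scd1 and Gsta2 are low on both.

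Single genes of glucose metabolism were 2-fold apart, beside 1.51% higher and 1.33% lower among all measured genes. Of 29 genes of gluconeogenesis and glycogen metabolism 1 was higher and 0 were lower, 21 had a ratio above 0, and the median was 0.32. Beside Got1, the glycogen synthase Gys2 had 0.99, the coactivator Ppargc1a 0.81, the glucose 6-phosphate transporter Slc37a4 0.79 and the phosphatase G6pc 0.59. The 28 genes of glycolysis and fructose entry had a median of 0.09, and the aldolase Aldoc was higher (1.27), with a bound of 0.33 by its dimmer probe. The pyruvate kinase Pklr had -0.30 and the ketohexokinase Khk -0.23.

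Among 35 genes of fatty acid and triglyceride synthesis 1 was higher and 1 lower, beside 1.51% and 1.33% of all measured genes. The list's median was 0.05. The lower gene was Scd1, the stearoyl-CoA desaturase that makes monounsaturated fatty acids. Its levels were 7.96 in HFHFr-N and 5.64 in HFHFr-NA, beside 7.74 in Control, 8.29 in HFHFr-F and 5.26 in HFHFr-FA. Both arrays with retinoic acid lay below the other 3, and the ratio of -2.32 stood beside -3.03 for HFHFr-FA over HFHFr-F, 2 arrays on different slides. Other genes of the same pathway did not share this size of difference: Srebf1, the regulator of lipogenesis, had -0.67, Fasn 0.28, Acaca 0.56, Acly 0.21 and Elovl6 0.16. Lpin1, a phosphatidate phosphatase, was the higher gene at 1.14.

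Of 22 genes of lipid droplets and targets of PPARG 2 were lower and 0 higher, beside 1.33% and 1.51% of all measured genes. The list's median was -0.15. Cd36, a fatty acid transporter, had levels of 4.28 in HFHFr-N and 3.13 in HFHFr-NA, beside 3.11 in Control, 4.25 in HFHFr-F and 3.36 in HFHFr-FA. It was as low in HFHFr-NA as in Control, with ratios of -1.15 and -1.19 from its 2 probes. Cidea, which enlarges lipid droplets, had 5.82 in HFHFr-N and 4.65 in HFHFr-NA, beside 3.73 in Control, 5.96 in HFHFr-F and 4.88 in HFHFr-FA. Its ratio was -1.17, and it remained above Control in HFHFr-NA. Pparg itself had -0.63, whereas the droplet proteins Cidec and Plin2 had 0.59 and -0.07.

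None of 42 genes of fatty acid oxidation and targets of PPARA reached 2-fold, and their median was 0.06. Few of all measured genes did so (1.51% higher, 1.33% lower), so a count of 0 does not set such a list apart. Cpt1a, which admits fatty acids into mitochondria, had 0.61 by its brighter probe and 0.11 by the other. The 73 measured subunits of oxidative phosphorylation all lay between -0.28 and 0.40, with a median of 0.09. Of 28 genes of cholesterol synthesis, uptake and export 2 were higher and 0 lower (median 0.18). These were the synthesis enzymes Sqle (1.36) and Dhcr7 (1.13), beside Lss at 0.99 and Mvk at 0.91 by their brightest probes. Other probes gave 0.45 and -0.10 for Lss and 0.04 for Mvk, while Hmgcs1, an earlier enzyme of the same route, had -0.67. Apoa4 was the only one of 21 apolipoprotein and lipoprotein assembly genes to reach 2-fold, at 1.59, with levels of 3.81 in HFHFr-N and 5.40 in HFHFr-NA, beside 4.23 in Control, 6.58 in HFHFr-F and 5.17 in HFHFr-FA. Of 29 bile acid genes 0 reached 2-fold, and Cyp7a1, which catalyses the first step of the classic route to bile acids, had -0.46.

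Several enzymes that oxidise and conjugate foreign compounds were lower in HFHFr-NA. Among all measured genes 1.33% were at least 2-fold lower, 1.51% were higher and 53.2% had a ratio above 0. Of 34 measured genes of the cytochrome P450 list (families 1 to 3 and their regulators) 5 were lower, 0 were higher and 9 had a ratio above 0. The list's median was -0.29. The lower genes were Cyp2b13 (-1.87), Cyp2b9 (-1.61), Cyp2c55 (a bound of -1.60), Cyp3a11 (-1.21) and Cyp2c70 (-1.10). Cyp3a11, the main drug-oxidising P450 of mouse liver, had levels of 7.95 in HFHFr-N and 6.74 in HFHFr-NA, beside 8.11 in Control, 6.41 in HFHFr-F and 4.56 in HFHFr-FA. HFHFr-N was close to Control and the other 3 arrays were lower. Cyp2b9 had 4.51 in HFHFr-N and 2.91 in HFHFr-NA, beside 1.46 in Control, 6.05 in HFHFr-F and 5.10 in HFHFr-FA, so it remained above Control in HFHFr-NA. Some genes within the 2b, 2c and 3a families are close in sequence, and the probes of such genes may share signal. Por, the reductase that serves these enzymes, had 0.86, and the receptors Nr1i2 and Nr1i3 had 0.36 and -0.10.

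Of 41 genes of conjugation (phase II) 6 were lower and 0 higher, beside 1.33% and 1.51% of all measured genes. A ratio above 0 was found in 12, and the median was -0.44, the lowest of any pathway list. The glutathione transferases Gsta2 (-1.85), Gsta1 (-1.33) and Gsta4 (-1.08), Mgst3 (-1.18), the sulfotransferase Sult1c2 (-1.23) and the glucuronosyltransferase Ugt2b34 (-1.10) made up the 6. Gsta2 had levels of 3.25 in HFHFr-N and 1.40 in HFHFr-NA, beside 3.46 in Control and 3.75 in HFHFr-F, and its ratio of HFHFr-FA over HFHFr-F was -2.75. It was low on both arrays with retinoic acid and similar on the other 3. The glutathione transferases of the m class had smaller differences, from -0.88 for Gstm6 to -0.23 for Gstm4. Among 21 antioxidant targets of NRF2 Gsta2 was again the only one past 2-fold, while Gclm and Gclc, which make glutathione, had -0.84 and -0.80, and Nqo1 and Txnrd1 had 0.03 and 0.11.

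**Figure D3:**
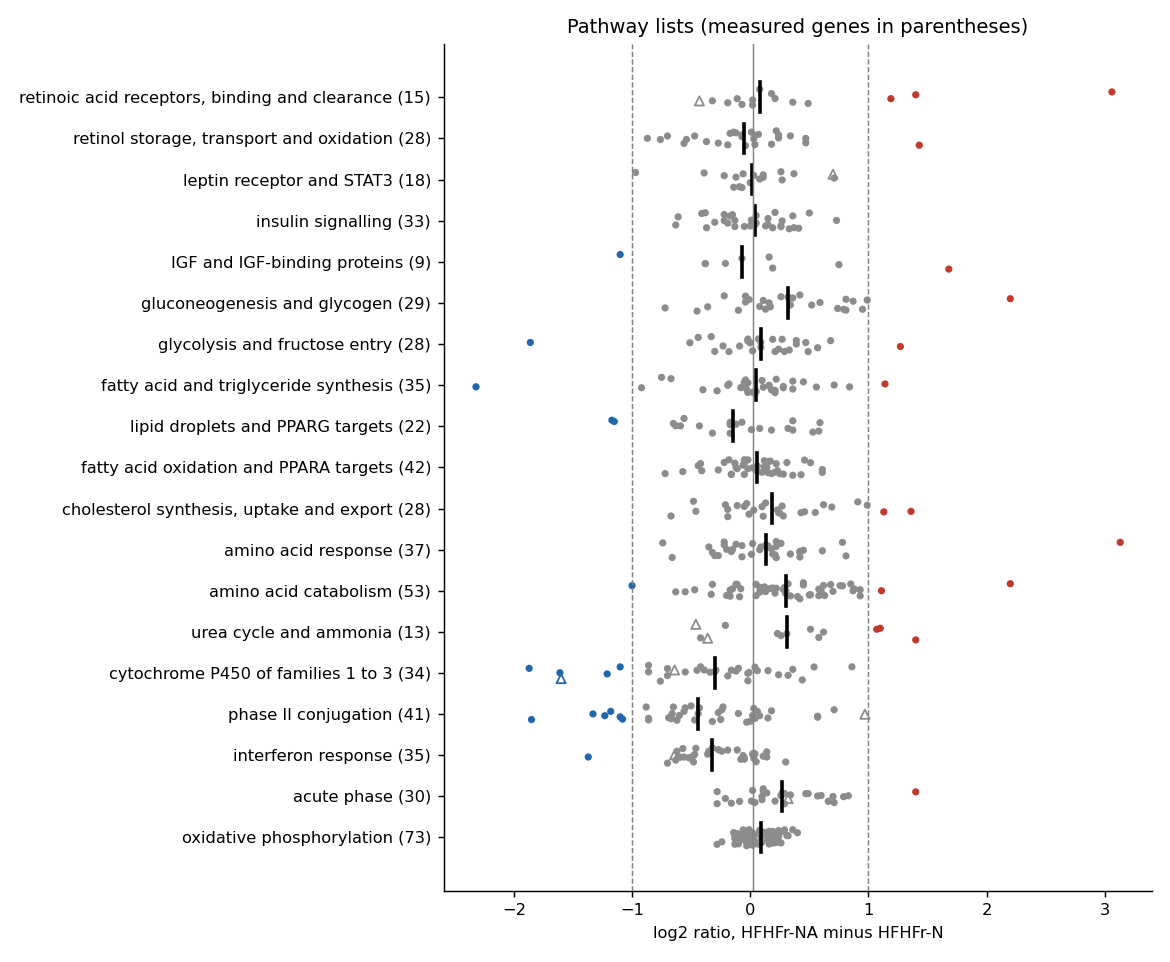
Log2 ratio of HFHFr-NA over HFHFr-N for the measured members of 19 pathway lists, with the list's median as a black bar, bounds as open triangles, dashed lines at 2-fold and a grey line at the median of all genes (0.02). The medians of conjugation (-0.44) and interferon response (-0.32) lie to the left and those of urea cycle (0.31) and gluconeogenesis (0.32) to the right.

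Genes with different levels in male and female liver reached 2-fold in both directions, beside 1.51% higher and 1.33% lower among all measured genes. Of 21 measured female-biased genes 4 were lower and 0 higher (median -0.12), among them Cyp2b13, Cyp2b9, the neurotrophin receptor Ntrk2 (-1.72) and the peroxisomal transporter Abcd2 (-1.23, and -0.66 by its other probe). Of 21 male-biased genes 2 were lower, Hsd3b5 (-1.53) and Keg1 (-1.21), and 1 was higher, with a median of 0.15. The higher one was Egfr, a growth factor receptor, with levels of 4.16 in HFHFr-N and 5.18 in HFHFr-NA, beside 5.99 in Control, 3.74 in HFHFr-F and 5.50 in HFHFr-FA. Its ratio was 1.02, and the further probes measured on both arrays gave 1.19, 1.05, 0.83 and 0.81, while the dimmest gave a bound of 0.21. The female-biased median was -0.41 over the 18 genes well above background on both arrays.

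Among 19 immediate early genes, which respond quickly to many stimuli, 3 were higher and none was lower, beside 1.51% and 1.33% of all measured genes. The list's median was 0.02. Myc had a ratio of 1.16, Junb 1.05 and Btg2 1.01, whereas Jun had -0.48 and Egr1 0.32. Each of the 3 fell short of 2-fold by another probe measured on both arrays, which gave 0.74 for Myc, 0.12 for Junb and 0.31 for Btg2. Gadd45g, a stress-responsive gene, had levels of 3.63 in HFHFr-N and 5.67 in HFHFr-NA, beside 4.70 in Control, 4.26 in HFHFr-F and 6.46 in HFHFr-FA. Both arrays with retinoic acid were above the other 3 and the ratio was 2.04, while Gadd45a and Gadd45b had -0.77 and 0.15. Cdkn1a had 0.78, and of 22 p53 target and Gadd45 genes 2 were higher, Gadd45g and Btg2, with a median of 0.11. None of 21 cell cycle genes reached 2-fold (median -0.09), nor did any of 22 heat shock chaperones (0.10) or 18 clock genes (0.24), and of 34 genes of the unfolded protein response 1 was lower, Ppp1r15a at -1.09 (median 0.01).

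Of 30 acute phase genes 1 was higher, 0 were lower and 25 had a ratio above 0. The shares of all genes were 1.51%, 1.33% and 53.2%. The acute phase median was 0.27, which cyclic loess brought to 0.14. Lcn2, an iron-siderophore binding protein, was the higher one, at -1.26 in HFHFr-N and 0.15 in HFHFr-NA, beside -3.83 in Control (not well above background), 1.49 in HFHFr-F and 1.85 in HFHFr-FA. Serpina3n had 0.79 and Saa2 0.60. Of 35 interferon response genes 0 were higher, 1 was lower and 9 had a ratio above 0, with a median of -0.32. Gbp6 had -1.37, and Igtp (-0.70), Rsad2 (-0.63) and Ifit1 (-0.62) were lower by less than 2-fold. Among 24 chemokine and inflammation genes Ccl5 was higher (1.05) and Cxcl13 lower (a bound of -1.23). In the iron list of 21 genes Tfrc, the transferrin receptor, was higher (1.01) and the hepcidin gene Hamp2 lower (-1.32), while Hamp had 0.49. None of 35 complement and coagulation genes (median 0.09), 24 collagen and matrix genes (0.04), 19 hepatokines (0.17) or 34 liver transcription factors (0.06) reached 2-fold. Few of all measured genes did so either (1.51% higher, 1.33% lower).

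All 10 hepatocyte markers were well above background on both arrays. Alb had a ratio of 0.00, and the summed marker level was 5268 in HFHFr-N and 5501 in HFHFr-NA, in units of the array's 75th percentile. In bulk liver, fewer cells of a type and less RNA per cell cannot be told apart. Of 16 periportal hepatocyte markers 4 were higher, 0 lower and 12 had a ratio above 0, beside 1.51%, 1.33% and 53.2% of all genes. The periportal median was 0.60. The 4 were Asl, Sds, Ass1 and Cps1, which stand in the lists above, and the periportal markers outside those lists, Cdh1 and Aldh1b1, had 0.89 and 0.61, while Cyp2f2 and Hsd17b13 had -0.16 and -0.56. The 14 pericentral markers had a median of 0.08, from -0.86 for Cyp1a2 to 0.40 for Oat. The summed periportal level was 1713 in HFHFr-N and 2403 in HFHFr-NA, beside 1984 in Control, 1444 in HFHFr-F and 1645 in HFHFr-FA.

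Macrophage and antigen-presenting cell markers were lower by less than 2-fold. Among the 17 markers of Kupffer cells and macrophages, 16 had a ratio below 0, the exception being Marco at 0.14, and the median was -0.42. Adgre1, the gene of the macrophage antigen F4/80, had -0.94, Timd4 -0.78 and Clec4f -0.54. The summed level was 211 in HFHFr-N and 159 in HFHFr-NA, beside 166 in Control, 311 in HFHFr-F and 286 in HFHFr-FA, so HFHFr-NA was the lowest of the 5. All 8 measured class II genes were also below 0, from -0.50 for H2-Aa to -0.16 for H2-DMb1, and their sum was 26.5 in HFHFr-N and 20.0 in HFHFr-NA. These lists moved with the interferon response genes described above, and their part in that difference was not tested. Trem2, a marker of lipid-associated macrophages, went the other way at 0.94.

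Markers of other immune cells were mostly dim. Of 9 neutrophil markers on the array 3 were measured, with S100a8 at 1.48, S100a9 at 0.86 and Csf3r at 0.03, while the defining Elane, Mpo, Ngp and Camp were not well above background on either array. Of 18 T and NK cell markers 8 were measured, with a median of 0.37, and Cd4, Cd8a, Ncr1 and Prf1 were not well above background. The summed neutrophil level was 3.71 in HFHFr-N and 6.69 in HFHFr-NA, beside 2.32 in Control, 6.03 in HFHFr-F and 11.3 in HFHFr-FA. HFHFr-FA thus had the highest sum, and HFHFr-NA was close to HFHFr-F. The cause was not tested. The 14 stellate cell markers had a median of 0.23 and the 12 endothelial markers -0.08, with 0 of either past 2-fold. Nor was any of 9 lipid-associated macrophage markers (median -0.02), 5 B and plasma cell markers (-0.14) or 7 cholangiocyte markers (-0.06). Of the mesothelial markers only Msln was measured (-0.59), and of the acinar ones Amy2a5 (-0.98) and Ctrb1 (0.22). Cfd, also an adipocyte gene, had -1.64, but Adipoq, Lep, Plin1 and Retn were not well above background on either array. The 5 measured erythroid markers had a median of -0.43, the globins Hba-a1 and Hba-a2 being at -0.43 and -0.51.

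**Figure D4:**
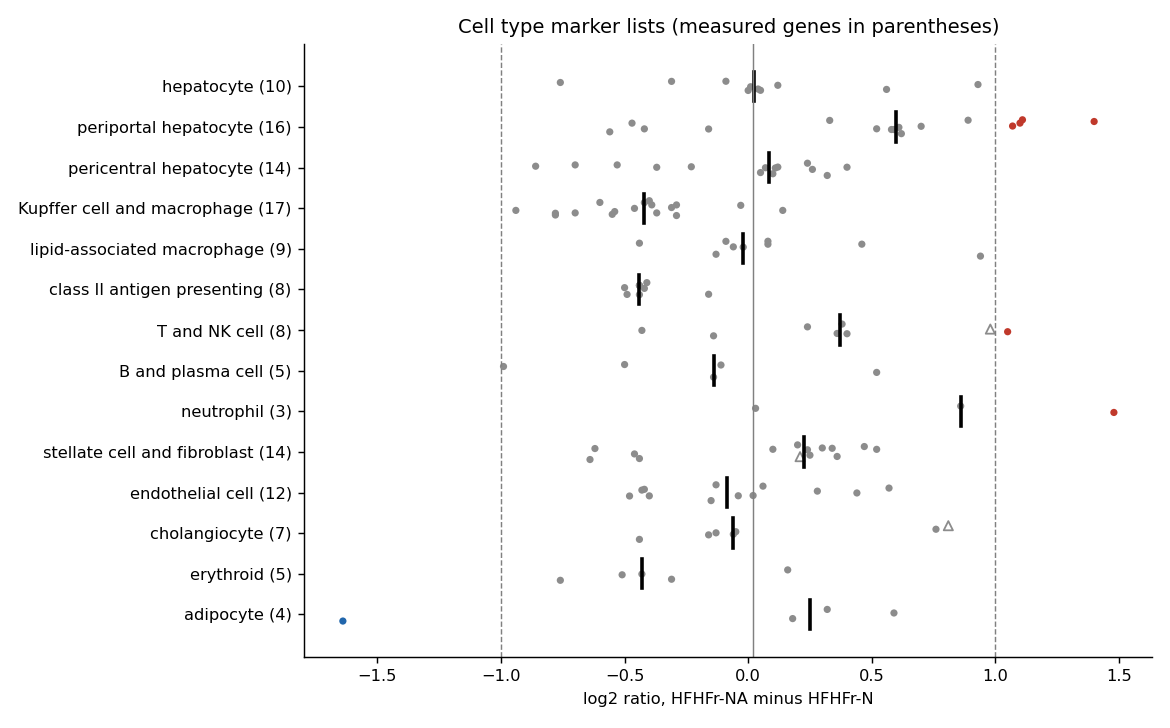
Log2 ratio of HFHFr-NA over HFHFr-N for measured markers of 14 cell types, with medians as black bars, bounds as open triangles, dashed lines at 2-fold and a grey line at the median of all genes (0.02). All but 1 Kupffer cell marker and all class II genes lie left of 0, and the periportal median is 0.60.

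Several of the largest differences lay outside these lists. Kiss1, the gene of the peptide kisspeptin, had levels of -1.07 in HFHFr-N and 1.43 in HFHFr-NA, beside -0.24 in Control, -2.05 in HFHFr-F and -0.88 in HFHFr-FA, a ratio of 2.50. HFHFr-NA was the highest array and HFHFr-F the lowest. Chil3, a chitinase-like protein of macrophages, had 1.94, Tff3, a secreted trefoil peptide, 1.81, Gnat1 1.79 and Osr1 1.77. The second probes of Gnat1 and Osr1 were not well above background in HFHFr-N or HFHFr-NA, so each ratio rests on a single probe. Taf15 had a ratio of 2.87, but its second probe was not well above background in HFHFr-N and gave a bound of 2-fold. Ccdc71 had 1.84 by its brighter probe and -0.48 by the other, and Cped1, at 2.17, stood among other spots bright on that array alone.

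On the lower side Lgals1, which encodes a galactose-binding lectin, had levels of 5.30 in HFHFr-N and 3.29 in HFHFr-NA, beside 4.00 in Control, 6.58 in HFHFr-F and 4.03 in HFHFr-FA. It was lowest in HFHFr-NA, 4.02-fold below HFHFr-N. Serpina7, the gene of thyroxine-binding globulin, had -1.95, the water channel Aqp8 -1.74, the steroid dehydrogenase Hsd17b6 -1.74 and Acss3, an acyl-CoA synthetase, -2.16. The lectin-like receptor Clec2h had -1.98, the kinase Wnk4 -1.82 and the glutamate receptor subunit Grik4 -1.87. Some of these genes were dim in HFHFr-NA, with levels of -3.42 for Acss3, -3.34 for Grik4 and -2.76 for Wnk4. The lowest measurable level of that array was -3.75. Zfp101 (-2.84) and Exoc6b (-2.29) stood among other spots bright on the HFHFr-N array alone.

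Bounds were largest for genes seen on a single array. Syt14 was well above background in HFHFr-NA alone, with a bound of 3.28, and so was Cnmd, with 2.64. Each had 1 other such bright spot within 2 rows and columns, and Syt14 had 2 within 4, so a wider window would place it among them. A second Syt14 probe was well above background on no array. Slc25a34 (2.98) and Olfr1290 (2.60) were in the same position but lay among spots bright on that array alone. Gsg1l (2.58) was well above background on both arrays with retinoic acid and on none of the other 3. Olfr1387 (-4.24), Gpr21 (-2.97), Tfap2c (-2.40) and Sptssb (-2.10) were measured in HFHFr-N alone among such bright spots, whereas Cstad (-2.22) was not among such spots and was well above background on every array but Control and HFHFr-NA.

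The threshold of 2-fold cut through a continuous range. Within 0.1 on the log2 scale above it lay 48 of the 225 higher genes, and 74 genes lay within 0.1 below it. On the lower side 65 genes were just past the threshold and 63 just short of it. Gys2 and Lss, both at 0.99, were just short, and Btg2 and Tfrc, both at 1.01, just past.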

How the data were processed

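Liver RNA pooled from 5 mice per group was hybridised in 1 colour to Agilent whole mouse genome arrays, per the labels. Per the file headers, the authors quantified the scans in Feature Extraction 10.5.1.1, and each processed intensity is background-subtracted within its array and deposited unscaled. The deposited value table holds linear ratios of that intensity to 1 constant per array, found by comparison with the scanner values. It is not centred, its direction is that of the signal, and its medians run from 0.0675 to 0.0744. No source used here states the choice of constant. On each array it matched the 75th percentile of all spots, for example 165 in HFHFr-N and 173 in HFHFr-NA.

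Outlier spots were left out, log2 intensity was set relative to the 75th percentile of the array's non-control spots and averaged per probe, and the probe with the highest mean level over 5 arrays stood for a gene. Of 41174 probes 24836 were named by accession through RefSeq (GRCm38.p6, names only) and 16338 kept the deposited name. Where 1 array was not well above background, the ratio is a bound against the higher of the probe's own signal and the lowest signal well above background there. A difference of 1 on the log2 scale was counted. No p-value was computed. Of 1211 listed symbols 1195 matched, in 37 pathway and 16 marker lists. Named were the 15 highest and 15 lowest genes measured on both arrays, 5 bounds at each end, up to 6 members per list with every 2-fold member, and fixed genes; the text gives part of these, and other list members and Serpinf2 were added with their values known. The lists, genes and alternatives were chosen with earlier results of these data known. The ratio procedure was tested on simulated data. Python 3.11 tables were used with limma 3.58.1 in R 4.3.3 for the alternatives, and genes not on these arrays were not analysed here. Some list members are not reported here. Exon and untranslated region were not determined.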

Additional observations from a re-analysis of the deposited data

Results flagged for a closer look

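Genes were counted here only where all 4 arrays were well above background. With that limit, 7 of the 305 genes named differed with retinoic acid by at least 2-fold in opposite directions on the normal and HFHFr diets. The limit left out Hsd3b5, whose HFHFr-F level of -4.41 was too dim to count as measured. Hsd3b5 had -1.53 for HFHFr-NA over HFHFr-N and a bound of 4.88 for HFHFr-FA over HFHFr-F. Many of the named genes were chosen for a large ratio, and the share over all measured genes is not given here. This opposition was not tested, each ratio rests on 1 pool against 1 pool, and HFHFr-FA was on a slide of its own, so slide and treatment cannot be told apart in the second ratio. Asns had 3.13 for HFHFr-NA over HFHFr-N and -1.05 for HFHFr-FA over HFHFr-F. Taf15 had 2.87 and -1.34, Tff3 1.81 and -1.70, Ttll1, a tubulin-modifying enzyme, 1.72 and -1.09, Apoa4 1.59 and -1.41, and Tfrc 1.01 and -1.32. Cfd had -1.64 and 1.05. Other probes did not show the opposition for Taf15 and Ttll1. The second Taf15 probe had levels of -3.09 in HFHFr-F and -3.23 in HFHFr-FA. The second Ttll1 probe was well above background in HFHFr-FA alone.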

How the results depend on the processing

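The counts of 225 higher and 198 lower genes became 50 and 43 with normexp and quantile normalization, 134 and 119 when both arrays had to be well above background, and 1047 and 1064 with no detection filter, where 28631 names entered. With median scaling, cyclic loess, the mean of all probes, the deposited value table or without bright neighbouring spots they stayed within 1.5 times. Of the 82 named genes past 2-fold, every one that a setting measured kept its direction under all 8 alternatives. With normexp 48 stayed past 2-fold. The alternatives reuse the arrays on which these genes were chosen. A kept direction was therefore nearly given in advance and cannot show whether the groups differ. Some list medians moved by more than the 0.103 spread between spots: with normexp amino acid catabolism went to 0.20, interferon response to -0.18, periportal markers to 0.48 and class II genes to -0.33. The urea cycle median was 0.51 over genes measured on both arrays, and gluconeogenesis 0.22 with no filter. The direction of these medians held, and the cause was not tested. With 1 array per group no replicate could be left out. No paired analysis was possible because each group has 1 array. Ratios of dim genes are limited by signal over background.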
